A study of Mus musculus with 37 samples.

Results

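The genes described here are 9 core components of the hedgehog pathway, Gli1, Gli2, Gli3, Ptch1, Smo, Boc, Cdon, Hhip and Sufu, out of 21975 Ensembl genes listed in each of 2 tables of astrocyte RNA abundance. They were taken by matching their Ensembl identifiers to these symbols, and all 9 were found in both tables. The set was built around Gli3, a gene that stood out in the ipsilateral comparison of PTE+ with PTE- mice in these same libraries, so the values of that comparison are given as a description without p-values.

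Hedgehog ligands such as Sonic hedgehog bind the receptor Ptch1, helped by the co-receptors Boc, Cdon and Gas1, and this releases the membrane protein Smo from inhibition at the primary cilium. Active Smo frees the GLI transcription factors from their inhibitor Sufu, and Gli1, Ptch1 and Hhip are in turn switched on as targets, with Ptch1 and Hhip acting as brakes that bind the ligand. Gli2 is known mainly as an activator and Gli3 mainly as a repressor when no ligand is bound. In the adult cortex the ligand is known to come from neurons, and astrocytes are known as cells that receive it.

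Cortical astrocytes were collected for RNA sequencing from wild-type male mice at 4 months after a severe controlled cortical impact (CCI) over the right parietal cortex. Their strain is CD1 in the methods and CD31 in the sample labels, and their age is not given in the sources used here. PTE+ mice were injured mice with seizures on EEG (post-traumatic epilepsy), PTE- mice had the same injury without seizures, and sham mice had the craniectomy without the impact. All 3 groups carried EEG electrodes, which were removed when the tissue was taken. Cells were pulled from the cortex on the injured side (ipsilateral) and the other side (contralateral) with magnetic beads against ACSA-2, a surface antigen of astrocytes. The ipsilateral data hold 19 libraries (5 sham, 10 PTE-, 4 PTE+) and the contralateral data 18 libraries (5 sham, 9 PTE-, 4 PTE+), each from 1 named mouse. A total of 17 mice gave both hemispheres. Values are TPM, a share of all transcripts scaled for gene length, which allow levels of different genes to be compared per length but keep no sequencing depth, so the depth behind each value is unknown here and no counting interval is given.

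The astrocyte identity was checked with 8 markers. Their summed level was 5216 to 10418 TPM over the libraries and none of the 8 was at 0 in all libraries of a group, but markers of microglia, oligodendrocytes, endothelial cells, mural cells and neurons were detected too, so the libraries are enriched for astrocytes and not pure. Because these are bulk samples, fewer cells of a type and less RNA per cell cannot be told apart. One ipsilateral PTE- library, of mouse 9_14, had 10727 genes above 0 TPM where the other ipsilateral libraries had 15599 to 18319, and it held the lowest value of all 19 libraries for 42% of 10204 genes and the highest for 25%. It was lowest for 6 of the 9 hedgehog genes. The ipsilateral library of sham mouse 9_11 was highest for 7 of the 9 hedgehog genes, against 24.6% of all genes, and the contralateral library of the same mouse for 4 of the 9, against 19.2%. Results of the 9 genes that rest on these libraries are in most cases given with and without them.

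The promoters of Gli3 and Smo by RefSeq are shown because the 2 genes carry most of what follows. A RefSeq promoter (build GRCm38.p6) was held for 7 of the 9 genes, and both sequences are the 250 bases before the RefSeq start, 5′ to 3′, with CG dinucleotides in capitals. The stretch of Gli3 lies at chr13:15463473-15463722 on the plus strand and that of Smo at chr6:29735247-29735496 on the plus strand. In GENCODE, 2 transcripts of Gli3 start further upstream, so its stretch falls inside the annotated gene, in an intron of both, and it also falls in an exon of Gm6556, a gene on the minus strand. No GENCODE transcript covers the stretch of Smo.
Gli3: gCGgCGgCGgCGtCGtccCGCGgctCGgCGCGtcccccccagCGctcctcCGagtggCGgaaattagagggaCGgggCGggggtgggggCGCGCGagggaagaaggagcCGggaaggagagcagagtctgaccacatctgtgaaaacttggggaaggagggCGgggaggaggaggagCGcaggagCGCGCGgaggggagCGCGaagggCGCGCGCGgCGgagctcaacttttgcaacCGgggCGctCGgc
Smo: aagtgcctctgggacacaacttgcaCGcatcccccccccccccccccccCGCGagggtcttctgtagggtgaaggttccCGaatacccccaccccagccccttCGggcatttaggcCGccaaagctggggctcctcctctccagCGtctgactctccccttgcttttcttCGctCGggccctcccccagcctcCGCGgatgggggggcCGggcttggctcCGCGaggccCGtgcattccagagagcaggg
The stretch before Gli3 holds 34 CG dinucleotides and that before Smo 15, where the median of 32851 RefSeq promoters is 6. The stretch before Ptch1 holds 41, and 98.9% of promoters hold fewer. The consensus site bound by GLI factors, GACCACCCA, was searched on both strands of the 300-base window around each start. It was present in 0.253% of all promoters and in none of the windows of the 7 genes, which says only that these letters are not in these windows.

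The receiving side of the pathway was expressed and the ligands were close to 0. Smo was the most abundant of the 9 genes, at 42.0 ± 12.5 TPM (SD, n = 37 libraries), and it ranked first in 36 of 37 libraries. Ptch1 followed at 16.3 ± 6.66 TPM and Sufu at 15.03 ± 4.99 TPM, and these neighbours did not differ beyond their spread, with Ptch1 above Sufu in 21 of 37 libraries. Boc (12.01 ± 3.60 TPM) and Gli3 (11.7 ± 4.55 TPM) also overlapped, with Boc above Gli3 in 20 of 37 libraries. Gli1 stood at 9.86 ± 4.45 TPM, below Gli3 in 28 of 37 libraries, and Gli2 at 5.76 ± 2.27 TPM, below Gli1 in 35. Hhip reached 2.54 ± 1.30 TPM and Cdon 0.444 ± 0.479 TPM, and Cdon was lowest in 36 of 37 libraries. The order of the 3 GLI factors was therefore Gli3, Gli1, Gli2, with Gli3 and Gli1 within each other's spread.

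Around these genes, Shh stayed under 1 TPM in 37 of 37 libraries (median 0.03 TPM), as did Ihh (median 0.09 TPM), and Dhh stayed under it in 32. The co-receptor Gas1 was far more abundant than Boc and Cdon, at 61.2 ± 25.5 TPM, while the endocytic receptor Lrp2 was at 0 in 19 of 37 libraries. The regulatory subunit of protein kinase A, Prkar1a (241 ± 34.2 TPM), and the casein kinase Csnk1a1 (120 ± 18.4 TPM) were the most abundant transcripts of the 31 further pathway genes. Gpr161, a ciliary receptor that restrains the pathway, was under 1 TPM in all 37 libraries. The plot of levels by role shows this contrast between ligands and receiving machinery.

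**Figure D1:**
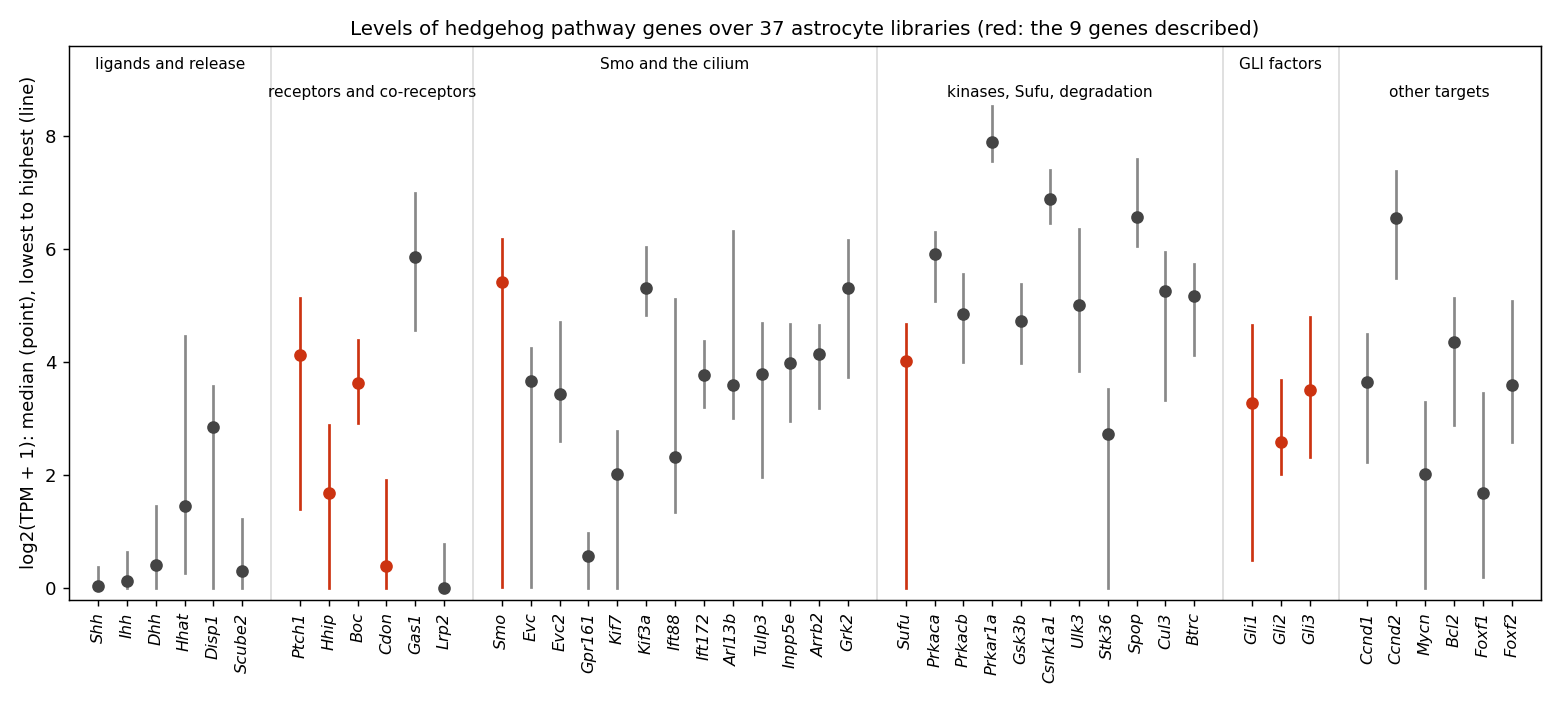
Levels of hedgehog pathway genes and targets in the astrocyte libraries, grouped by role. Points are medians and lines run from the lowest to the highest of 37 libraries on the log2(TPM + 1) scale, with the 9 genes described in red. Shh and Ihh sit near 0 while Smo (median 41.7 TPM), Gas1 (median 57.1 TPM) and the kinases sit high.

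Gli3, the transcription factor from which the set was built, is on chromosome 13 (15463235 to 15730026, plus strand, GRCm38). In the ipsilateral cortex it stood at 9.84, 11.5, 16.2 and 17.1 TPM in the 4 PTE+ mice. The 10 PTE- mice ranged from 4.03 to 14.1 TPM with a median of 9.24 TPM, and the sham mice stood at 7.87, 8.19, 9.77, 10.1 and 27.0 TPM. The PTE+ values lay above the PTE- median in 4 of 4 mice and above every PTE- value in 2 of 4, and the highest value of all belonged to sham mouse 9_11. The means were 13.7 ± 3.55 TPM (SD, n = 4), 9.35 ± 3.31 TPM (n = 10) and 12.6 ± 8.12 TPM (n = 5). On the log2(TPM + 1) scale PTE+ exceeded PTE- mice by 0.54 (SE 0.30), and by 0.44 without mouse 9_14. Against sham mice the PTE+ difference was 0.23 (SE 0.33) with all libraries and 0.53 without mouse 9_11. These differences share the libraries from which Gli3 was picked and carry no test.

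In the contralateral cortex, whose libraries were not used to pick it, Gli3 did not separate the groups. It stood at 7.07, 10.87, 11 and 18.58 TPM in the PTE+ mice, from 5.97 to 17.2 TPM (median 11.99 TPM) in the 9 PTE- mice, and at 8.87, 10.2, 13.6, 14.1 and 20.6 TPM in the sham mice. The means of PTE+ and PTE- mice were both 11.9 TPM, with SDs of 4.82 and 3.58 TPM. The difference was -0.02 on the log2 scale (SE 0.26, two-sided exact permutation p = 0.959), which at this SE leaves room for changes in either direction. Contralateral injured mice against sham mice gave -0.17 (exact permutation p = 0.461), and -0.02 without mouse 9_11 (exact permutation p = 0.945). These mice are largely the same animals as in the ipsilateral table, so the hemispheres are not independent samples of mice.

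Gli3 in ipsilateral injured mice of both outcomes stood at 10.6 ± 3.82 TPM (n = 14) against 12.6 ± 8.12 TPM (n = 5) in sham mice. The difference was -0.16 on the log2 scale (exact permutation p = 0.591) and 0.14 without sham mouse 9_11 (exact permutation p = 0.612), so the sign of this value rests on 1 library.

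**Figure D2:**
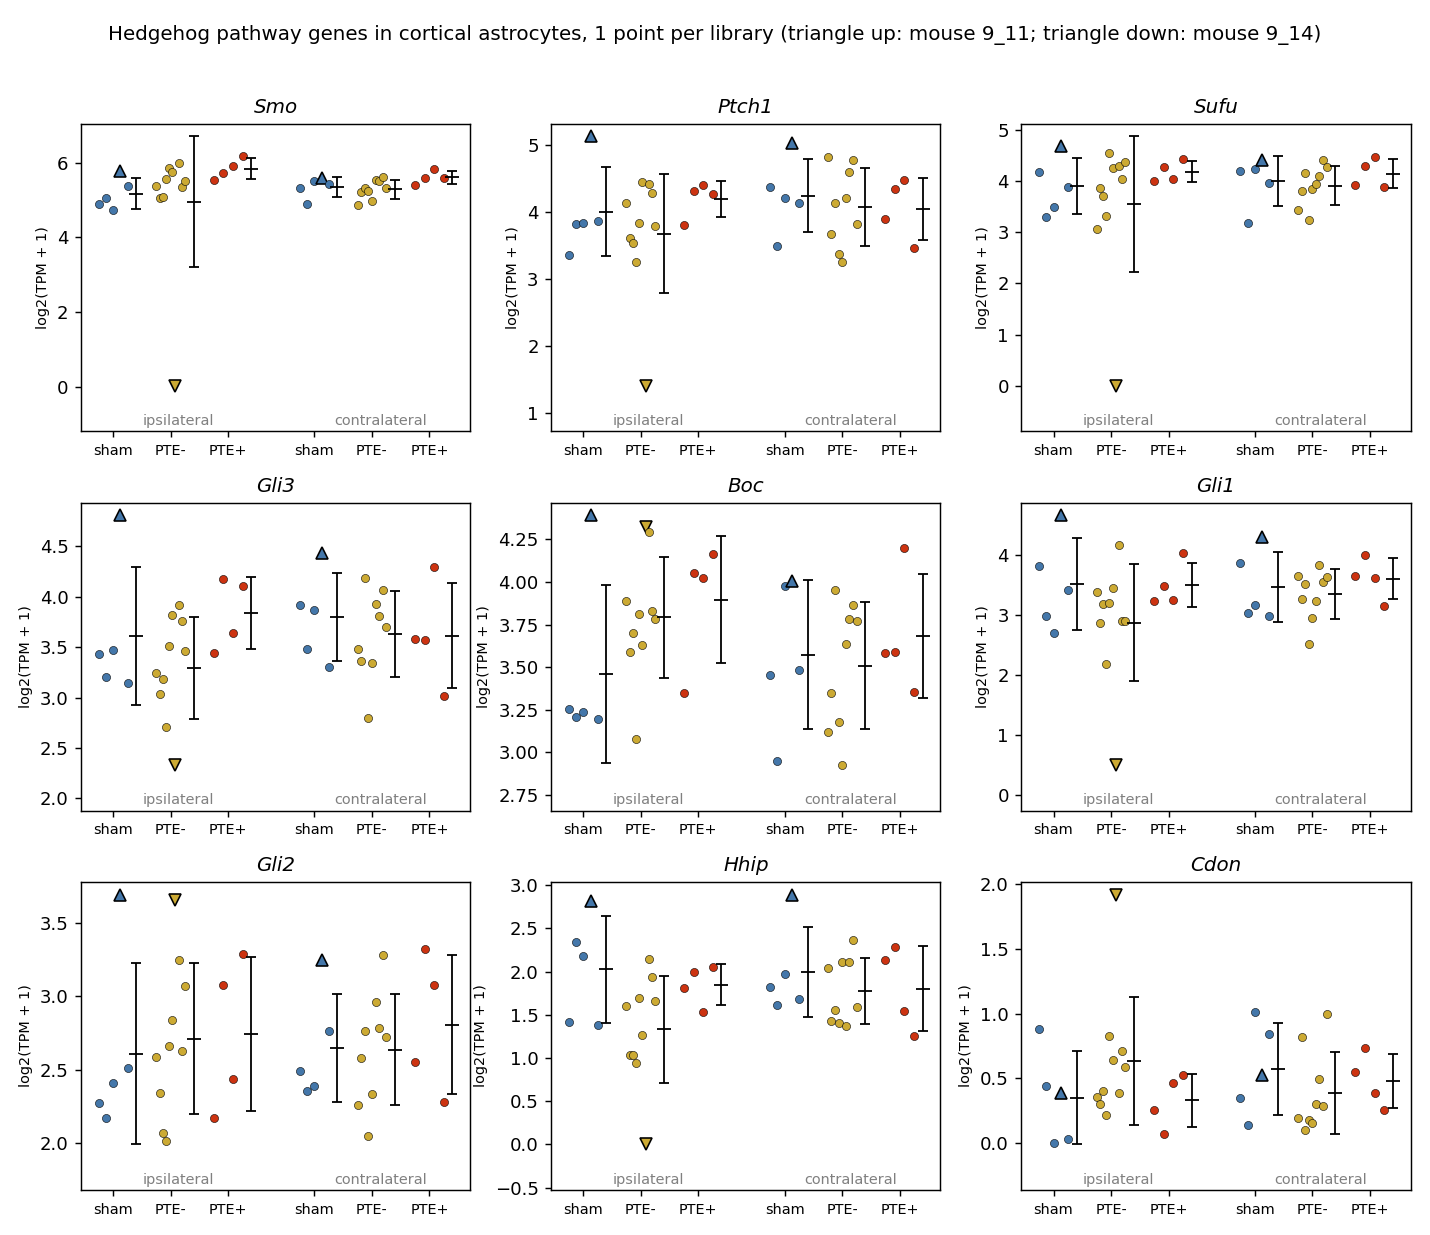
Levels of the 9 hedgehog genes, 1 point per library, on the log2(TPM + 1) scale (y axis, not starting at 0 in every panel), by group and hemisphere. Black bars are group means ± SD, upward triangles mark sham mouse 9_11 and downward triangles PTE- mouse 9_14. In the ipsilateral cortex mouse 9_14 lies far below its group for Smo (0.02 TPM), Sufu (0 TPM) and Gli1 (0.41 TPM), and mouse 9_11 far above for Gli3 (27.0 TPM), Ptch1 (34.2 TPM) and Boc (19.98 TPM).

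The genes that report pathway output, Gli1, Ptch1 and Hhip, passed no test in any comparison of groups with all libraries in. Gli1, whose transcript is widely used as a readout of the pathway, stood at 8.45, 8.54, 10.3 and 15.3 TPM in ipsilateral PTE+ mice. In PTE- mice it ranged from 0.41 to 17.1 TPM with a median of 7.30 TPM, and in sham mice it stood at 5.48, 6.96, 9.68, 13.2 and 24.4 TPM. The groups overlapped, and ipsilateral PTE- against sham mice gave -0.64 on the log2 scale (exact permutation p = 0.239), or -0.38 without mouse 9_14 (exact permutation p = 0.305). In the contralateral cortex the PTE+ mice stood at 7.94, 11.4, 11.6 and 15.04 TPM against 4.70 to 13.3 TPM (median 10.4 TPM) in PTE- mice, a difference of 0.26 (SE 0.23, exact permutation p = 0.306).

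Ptch1, the receptor that holds Smo inactive, stood at 13, 18.37, 18.97 and 20.19 TPM in ipsilateral PTE+ mice. PTE- mice ranged from 1.65 to 20.8 TPM (median 13.1 TPM), and sham mice stood at 9.30, 13.2, 13.3, 13.6 and 34.2 TPM. Against sham mice the PTE+ difference was 0.20 (exact permutation p = 0.667), and 0.48 without mouse 9_11 (exact permutation p = 0.114). Contralateral means were 16.2 ± 5.16 TPM in PTE+, 17.1 ± 7.11 TPM in PTE- and 19.1 ± 7.80 TPM in sham mice, with PTE+ and PTE- apart by -0.02 on the log2 scale (exact permutation p = 0.943).

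Hhip, the decoy receptor that soaks up ligand, was low throughout and did not pass the expression filter, a group mean above 5 TPM. It stood at 1.61, 1.67, 3.53, 4.07 and 6.02 TPM in ipsilateral sham mice, from 0 to 3.43 TPM (median 1.72 TPM) in PTE- mice, and at 1.88, 2.51, 2.98 and 3.15 TPM in PTE+ mice. All 14 injured mice lay below the sham median and 5 of the 14, all PTE- and mouse 9_14 (0 TPM) among them, lay below every sham mouse. The difference between PTE- and sham mice was -0.70 on the log2 scale, a size that missed the threshold (exact permutation p = 0.0596), and it was -0.50 without mouse 9_11 (exact permutation p = 0.180). Both values include mouse 9_14. The PTE- mean was 1.71 ± 1.02 TPM with that mouse (n = 10) and 1.90 ± 0.871 TPM without it (n = 9). The sham mean was 3.38 ± 1.84 TPM (n = 5). In the contralateral cortex the same comparison gave -0.22 (exact permutation p = 0.386).

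Smo, the signal transducer, gave the calls of the set. It lies on chromosome 6 (29735503 to 29761365, plus strand, GRCm38). In ipsilateral PTE+ mice it stood at 45.3, 51.5, 58.8 and 71.6 TPM, against 25.6, 28.7, 32.3, 40.4 and 53.5 TPM in sham mice. The 4 PTE+ values lay above the sham median and 2 above every sham value, and the groups met only through sham mouse 9_11. PTE- mice lay from 32.2 to 62.3 TPM (median of all 10 mice 42.5 TPM), apart from mouse 9_14, which is listed at 0.02 TPM. The mean was 56.8 ± 11.3 TPM (n = 4) in PTE+ and 36.1 ± 11.2 TPM (n = 5) in sham mice, a log2 difference of 0.67 (SE 0.22). This difference was called, a call being a limma p under 0.05 before adjustment together with a change of 1.2 times or more. The exact permutation p was 0.0397, and the p adjusted over all 10447 genes was 0.99996 (limma, Benjamini-Hochberg). Smo was the 1 gene called of the 8 counted (Gli3 was left out), where 1.56% of all tested genes were called. The 8 include Hhip and Cdon, which were below the filter and could not be called. Without mouse 9_11 the groups no longer overlapped, with a difference of 0.82 (exact permutation p = 0.0286, the smallest a two-sided test of 4 against 4 allows). That mouse was left out with its high value known, and calls over all genes then rose from 163 to 1038. The share of all genes whose groups do not overlap without it was not computed. In a fit of all 3 groups, which includes mouse 9_14, the call was lost. Injured mice of both outcomes differed from sham mice by 0.04 (exact permutation p = 0.979), and by 0.44 without mouse 9_14 (exact permutation p = 0.0362), a value that was then called. Calls over all genes rose from 169 to 399 without that mouse.

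In the contralateral cortex Smo was again higher in PTE+ mice, here against PTE- mice. The PTE+ values were 41.3, 47.0, 47.5 and 55.7 TPM and the 9 PTE- values ran from 28.1 to 47.9 TPM with a median of 38.7 TPM. The 4 PTE+ values lay above the PTE- median and 1 above every PTE- value. The means of 47.9 ± 5.92 and 38.4 ± 6.60 TPM differed by 0.32 on the log2 scale (SE 0.14, exact permutation p = 0.0420, p adjusted over all 10423 genes 0.999 in limma). Smo was the 1 gene called of 9, where 2.79% of all genes were called. The ipsilateral difference between PTE+ and PTE- mice was 0.88 (SE 0.81), was not called and includes mouse 9_14 at 0.02 TPM. Its value without that mouse is given further below. Against contralateral sham mice (28.6 to 47.4 TPM, mean 40.3 ± 7.25 TPM) the difference was 0.25 and missed the threshold (exact permutation p = 0.151). The call against PTE- mice was lost without PTE+ mouse 8_17 (0.33), 9_17 (0.25) or 9_18 (0.32), with each library centred on its median (0.26), and with array weights (0.18).

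The mice carry a name prefix of 8 or 9, whose meaning is not given, and the Smo differences were of like sign within both prefixes. Among contralateral mice named with prefix 8, the 2 PTE+ values (41.3 and 47.0 TPM) lay above the 4 PTE- values (28.1 to 38.8 TPM), a difference of 0.34, and among those with prefix 9 the difference was 0.33. In the ipsilateral cortex PTE+ exceeded sham mice by 0.56 within prefix 8, which holds 1 PTE+ library, and by 0.64 within prefix 9. Marker levels moved with both comparisons. The astrocyte marker sum had a median of 8258 TPM (5492 to 8852) in ipsilateral PTE+ and 5815 TPM (5230 to 10418) in sham mice. The oligodendrocyte marker sum had a median of 996 TPM (815 to 1939) in PTE+ and 2670 TPM (195 to 4111) in sham mice, with none of the 6 markers at 0 in all libraries of either group. The sum of 6 endothelial markers had a median of 1367 TPM (623 to 1939) in contralateral PTE+ and 859 TPM (409 to 1186) in PTE- mice, with none of the 6 at 0 in all libraries of either group. Their part in the Smo differences was not tested.

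**Figure D3:**
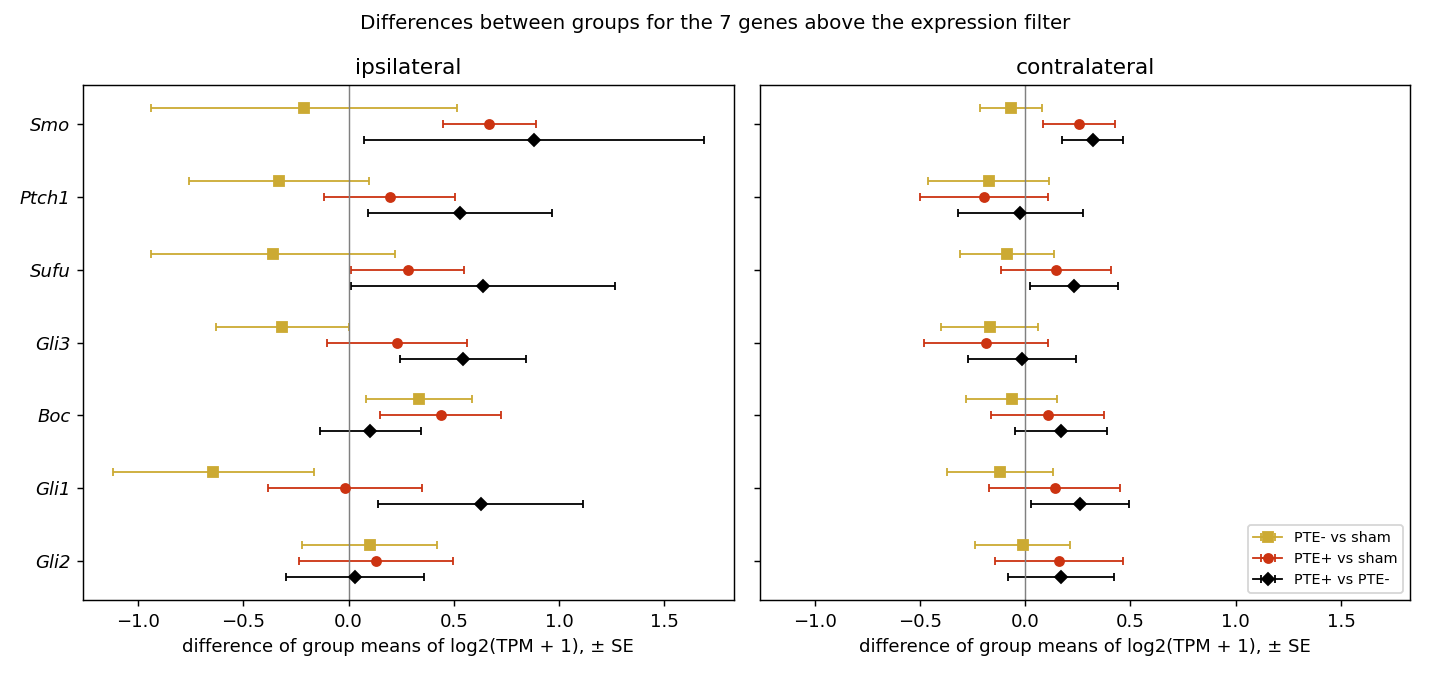
Differences between groups for the 7 hedgehog genes above the expression filter, as differences of means of log2(TPM + 1) with SE, ipsilateral on the left and contralateral on the right. The PTE+ value of Smo lies at 0.67 above sham in the ipsilateral and at 0.32 above PTE- mice in the contralateral cortex. For Smo, Sufu, Ptch1 and Gli1 the widest ipsilateral bars are those of comparisons that include PTE- mice, where mouse 9_14 was lowest. For Gli3, Gli2 and Boc they are those of PTE+ against sham mice, which include mouse 9_11.

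Sufu, the inhibitor that holds GLI factors in the cytoplasm, stood at 15.1, 15.3, 18.4 and 20.5 TPM in ipsilateral PTE+ mice and at 8.83, 10.3, 13.7, 17.1 and 24.7 TPM in sham mice. PTE- mice ranged from 0 TPM in mouse 9_14 to 22.4 TPM. The groups overlapped, with 0.28 between PTE+ and sham mice (exact permutation p = 0.365), or 0.47 without mouse 9_11 (exact permutation p = 0.114). Contralateral PTE+ and PTE- mice differed by 0.23 (SE 0.21, exact permutation p = 0.302).

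Boc, the co-receptor, gave a difference after injury that depends on 1 sham library. In the ipsilateral cortex 4 of the 5 sham mice stood together at 8.15, 8.26, 8.45 and 8.54 TPM and the fifth, mouse 9_11, at 19.98 TPM. PTE- mice ranged from 7.44 to 19.02 TPM (median 12.9 TPM), and PTE+ mice stood at 9.17, 15.3, 15.6 and 16.9 TPM. With all libraries injured mice exceeded sham mice by 0.36 (SE 0.22, exact permutation p = 0.0973), which was not called. Without mouse 9_11 the difference was 0.60 (exact permutation p = 0.00458), and 13 of 14 injured mice lay above all 4 sham mice. In PTE+ against sham mice Boc gave 0.44 (exact permutation p = 0.175), and 0.67 with no overlap without mouse 9_11 (exact permutation p = 0.0286), where Boc and Ptch1 were called as well as Smo. Calls over all genes in that comparison also rose, from 163 to 1038, without mouse 9_11, and the share of all genes without overlap was not computed. Leaving this mouse out was looked at with its high value known, so the p-values without it describe those libraries only. The astrocyte marker sum was 5230 to 6095 TPM in the 4 sham mice, 10418 TPM in mouse 9_11 and 5422 to 8964 TPM in the injured mice. The sum of 6 oligodendrocyte markers was 1461 to 4111 TPM in the 4 sham mice, 195 TPM in mouse 9_11 and 334 to 1939 TPM in the injured mice. The part of neither was tested. Contralateral Boc showed no such gap, with 11.2 ± 3.04 TPM in 13 injured and 11.3 ± 3.53 TPM in 5 sham mice, a difference of -0.01 (exact permutation p = 0.953).

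Gli2 stood at 3.50 to 8.75 TPM in ipsilateral PTE+, 3.05 to 11.6 TPM in PTE- and 3.50 to 11.9 TPM in sham mice, and no comparison of groups passed the rule. Its contralateral difference between PTE+ and PTE- mice was 0.17 (SE 0.25, exact permutation p = 0.488). Cdon, the other co-receptor, was below 1 TPM in 35 of 37 libraries and no comparison of its groups passed an exact permutation test at 0.05.

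Across the comparisons, 7 of the 9 genes passed the filter of a mean above 5 TPM in at least 1 group, Hhip and Cdon being the exceptions. Hhip and Cdon could not be called but are included in the counts of 9 and 8, while the shares of all genes cover tested genes only. In ipsilateral injured against sham mice 0 of 9 were called, where 1.62% of all genes were, and in PTE- against sham mice 0 of 8, where 1.54% were. In the contralateral cortex 0 of 9 were called in injured against sham mice (4.05% of all genes), in PTE- against sham mice (3.76%) and in PTE+ against sham mice (1.97%). In the ipsilateral comparison of PTE+ with PTE- mice that picked Gli3, 0 of 9 were called in these values and 0.573% of all genes were. There the median log2 difference of the 7 genes was 0.54, which is the value of Gli3 itself, the gene picked from this comparison. It is therefore no measure of the other 6. The median of all tested genes was 0.12 and 71.6% of them were higher in PTE+ mice. Without mouse 9_14 the values were 0.44 for Gli3, 0.36 for Gli1, 0.33 for Smo, 0.28 for Ptch1, 0.25 for Sufu, 0.16 for Boc and 0.13 for Gli2. The value of Gli2 (0.03 with all libraries) turned negative under quantile normalization (-0.18) and median centring (-0.05), and those of the other 6 stayed above 0 under both. No gene of any kind reached an adjusted p under 0.05 in these comparisons of groups in limma, where 63 to 472 genes had an unadjusted p under 0.05.

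The hemispheres of the same mice were compared next. None of the counted genes was called in sham mice (0 of 9, against 1.19% of all genes), PTE- mice (0 of 8, 3.48%) or PTE+ mice (0 of 8, 1.99%), nor when the gap between PTE+ and PTE- mice was compared across hemispheres (0 of 8, 0.749%). The counts and the SEs in this paragraph come from limma fits without the pairing by mouse, while the sign-flip tests use it. Counts with the mouse as a block are given further below. Gli3 in sham mice was lower on the ipsilateral side by a mean of 0.19 log2 units, in 4 of 5 mice (exact sign-flip permutation p = 0.250, where 5 mice allow no p below 0.0625). In the 9 PTE- mice its mean difference was -0.23, with 7 lower, and in the 3 PTE+ mice 0.12, with 1 higher. That gap was larger on the ipsilateral side by 0.35 (SE 0.40) for Gli3, given without a test, and changed by -0.11 (SE 0.25, adjusted p = 0.99995 in limma) for Smo.

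Hhip was lower on the injured side in most PTE- mice. It was lower in the ipsilateral than in the contralateral cortex in 7 of 9 PTE- mice, by a mean of 0.30 log2 units (SD 0.23, exact sign-flip permutation p = 0.0156, not adjusted for the number of genes). The pairs were 0.92 and 1.64 TPM, 1.04 and 1.68 TPM, 1.05 and 1.94 TPM, 2.04 and 3.11 TPM, 2.23 and 3.31 TPM, 2.83 and 4.17 TPM, 1.40 and 1.59 TPM, 2.15 and 2.00 TPM, and 3.43 and 3.33 TPM, ipsilateral first. The 2 mice that did not follow were nearly level. In sham mice the mean difference was 0.03, with 2 of 5 higher on the ipsilateral side (exact sign-flip permutation p = 0.938). In the 3 PTE+ mice it was 0.13, with 2 higher on the ipsilateral side (exact sign-flip permutation p = 0.750, where 3 mice allow no p below 0.25). The differences between the groups were not tested. Levels of 1 to 4 TPM are low, and Hhip is below the filter.

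**Figure D4:**
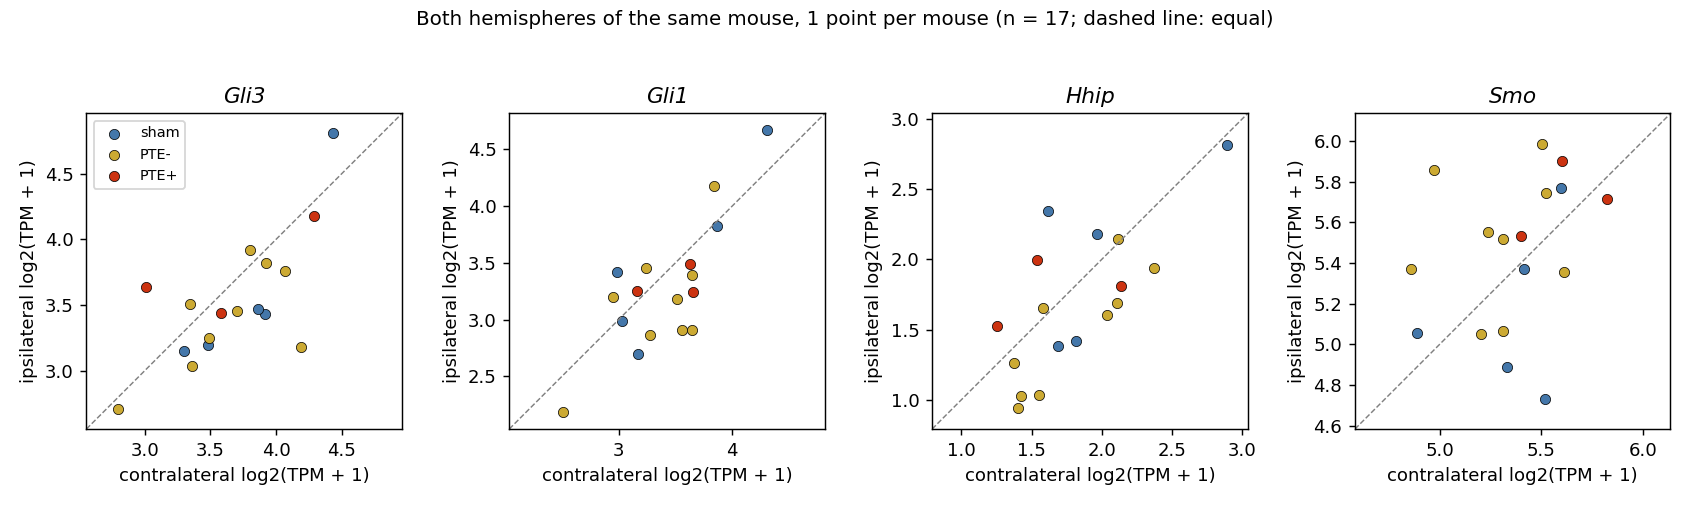
Levels of Gli3, Gli1, Hhip and Smo in both hemispheres of the same mouse, as log2(TPM + 1), contralateral on the x axis and ipsilateral on the y axis, 1 point for each of 17 mice. Points below the dashed line are lower on the injured side, as 7 of 9 PTE- mice are for Hhip. Sham mouse 9_11 is the point at the upper right for Gli3, Gli1 and Hhip.

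Several of the genes followed the mouse in both hemispheres, a relation looked at after the values were seen. Over the 17 mice Gli1 gave r = 0.772 (permutation p = 0.0004, rho = 0.564, permutation p = 0.0209) and Gli3 r = 0.707 (permutation p = 0.001, rho = 0.591, permutation p = 0.0147). Both fell without the 2 mice farthest from the median, 8_9 and 9_11, to 0.479 and 0.470, so the strength of the relation rests in part on those mice. Smo gave r = 0.281 (permutation p = 0.275, rho = 0.316, permutation p = 0.216). Over 10065 genes the median r was 0.467, and Gli1 stood at the 95.3rd, Gli3 at the 90.2nd and Smo at the 23.5th percentile. Within the prefixes r was 0.727 over 7 mice and 0.752 over 10 mice for Gli3, and 0.950 and 0.682 for Gli1. A total of 9 relations were computed, 1 per gene.

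The genes most like Gli3 across libraries were ranked by the lower of their correlations with it in the 19 ipsilateral and the 18 contralateral libraries. The first of 10064 genes was 4930402H24Rik (0.951 ipsilateral and 0.914 contralateral), followed by Akap8 (0.930 and 0.906), Bcl2 (0.915 and 0.905), Tsc22d2 (0.931 and 0.900) and Daam1 (0.909 and 0.880). Without mice 9_14 and 9_11 their ipsilateral correlations were 0.800 to 0.896. Bcl2 is also on the list of hedgehog targets. Of the set itself, Ptch1 ranked 315, Sufu 336, Gli1 476, Smo 2296, Boc 2311 and Gli2 2456. The last 2 ranks rest on mouse 9_14, without which the ipsilateral correlation rose from 0.452 to 0.778 for Boc and from 0.433 to 0.865 for Gli2, where Ptch1 had 0.875. These correlations describe libraries that share depth and composition, and they carry no test.

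Of 31 further genes (ligands and their release, receptors, cilium and signal transduction) 21 or 22 were tested in each comparison, and none was called in the ipsilateral comparisons of groups. In contralateral PTE+ against PTE- mice 1 of 21 was called higher (2.79% of all genes), Grk2, a kinase known to act on Smo, at 49.7 ± 10.7 against 34.8 ± 15.8 TPM (0.59, SE 0.27, exact permutation p = 0.0909). In sham mice 1 of 22 was called lower on the ipsilateral side (1.19% of all genes), by 0.74 log2 units (SE 0.31, adjusted p = 0.999 in limma without the pairing by mouse). This was Ift88, an intraflagellar transport gene of the cilium. Ift88 is low, with a median of 3.99 TPM over the 37 libraries. It may therefore have passed the filter of 5 TPM only through the contralateral side, where it was higher. The median difference of the list was 0.18 in ipsilateral PTE+ against PTE- mice and 0.09 in the contralateral cortex, beside 0.12 and 0.05 for all genes.

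Of 6 targets outside the set, Foxf2, a forkhead factor induced by hedgehog signalling, was the 1 called of 5 tested in contralateral PTE+ against PTE- mice (2.79% of all genes). It stood at 11.8 to 33.0 TPM in PTE+ and 7.73 to 14.9 TPM (median 10.6 TPM) in PTE- mice, with a mean difference of 0.60 (SE 0.24, exact permutation p = 0.0210), and 4 of 4 PTE+ values lay above the PTE- median. Foxf2 is also expressed by mural cells, whose 5 markers summed to a median of 233 TPM in PTE+ and 229 TPM in PTE- mice. The PTE+ mouse with the highest Foxf2, 9_17, also had the highest mural sum, 435 TPM against 224 to 241 TPM in the other 3, and the endothelial sum was higher in PTE+ mice, as given for Smo. The part of either was not tested. No target was called in the ipsilateral comparisons, and the most abundant target was Ccnd2, a cyclin, at 96.6 ± 33.4 TPM over the 37 libraries.

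A list of 6 astrocyte genes described as dependent on Sonic hedgehog signalling held Kcnj10, Aqp4, Gria1, Gria4, Slc1a3 and Sparc. Whether they depend on it in cortical astrocytes was not tested here. Of these, 5 were tested and 2 of the 5 were called higher after injury in the ipsilateral cortex, where 1.62% of all genes were called. Aqp4, the water channel of astrocyte endfeet, stood at 730 ± 156 TPM in 14 injured and 568.3 ± 199 TPM in 5 sham mice, a difference of 0.39 (SE 0.17, exact permutation p = 0.0498), and 14 of 14 injured mice lay above the sham median. Gria1, an AMPA receptor subunit, stood at 15.9 ± 4.57 against 10.9 ± 5.48 TPM, a difference of 0.59 (SE 0.25, exact permutation p = 0.0246), with 14 of 14 above the sham median. Their adjusted p in limma was 0.9997. Both results include the libraries of mice 9_11 and 9_14, and values without these libraries are not given. In these libraries the astrocyte marker sum, which includes Aqp4, had a median of 5815 TPM in sham, 7107 TPM in PTE- and 8258 TPM in PTE+ mice, and the oligodendrocyte marker sum 2670, 981 and 996 TPM, and their part was not tested. Both were also called in ipsilateral PTE+ against sham mice, where 1.56% of all genes were. The differences were 0.56 for Aqp4 (exact permutation p = 0.0635) and 0.79 for Gria1 (exact permutation p = 0.111). In the contralateral cortex Aqp4 gave -0.01 (exact permutation p = 0.928) and Gria1 -0.22 (exact permutation p = 0.539) after injury. Both were called higher on the ipsilateral side in PTE+ mice (0.50 and 0.83), in a fit of 3 mice without pairing where 1.99% of all genes were called. Gria1 was also called higher on that side in PTE- mice (0.53), where 3.48% of all genes were called, again without pairing. The other 3 tested genes, Kcnj10, Sparc and the glutamate transporter Slc1a3, the most abundant of the list at 2141 ± 436 TPM, were not called in any comparison. Gli1 in the same ipsilateral libraries gave -0.46 after injury (exact permutation p = 0.321), -0.18 without mouse 9_11 and 0.02 without mice 9_11 and 9_14. Ptch1 gave -0.18 (exact permutation p = 0.651), 0.10 without mouse 9_11 and 0.29 without both, so neither has a direction that holds without these libraries.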

How the data were processed

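Astrocytes isolated with ACSA-2 beads from both cortical hemispheres of sham, PTE- and PTE+ mice were sequenced. The authors trimmed the reads with Trim Galore 0.6.4 and made the deposited TPM values with RSEM 1.2.28 and Bowtie2 2.4.1 on mm10. TPM keep no depth, so DESeq2, which the study ran on raw counts, could not be run here. Symbols and positions were taken from a GRCm38 gene table, which matched 21856 of 21975 identifiers.

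Groups were compared with limma 3.58.1 in R 4.3.3, with a trend, on log2(TPM + 1), for genes whose mean exceeded 5 TPM in 1 or more of the groups compared, with calls by the study's rule (unadjusted p under 0.05, fold change of 1.2 or more), and p-values were adjusted by Benjamini-Hochberg over all genes tested. Fold changes on this scale understate those of low genes. Single genes had two-sided exact permutation tests over libraries, or over sign flips of mice between hemispheres (scipy 1.17.1, numpy 2.4.6, Python 3.11.15). Scripts were tested on simulated data. The named genes are the 9 members, the called genes of 3 lists (31 further pathway genes, 6 targets, 6 astrocyte genes), the most abundant of each, and the 5 genes most like Gli3. Shh, Ihh, Dhh, Gas1, Lrp2 and Gpr161 fall outside this rule and were named for their roles after their values were seen. One gene counted in the pathway list is not reported here by itself. Members and lists were chosen with earlier results of these data known, and Foxf2, Grk2, Ift88, Aqp4 and Gria1 are named because they were called.

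Hemispheres of 1 mouse were paired by its name for the sign-flip tests and the correlations between hemispheres. The limma comparisons of hemispheres left this pairing out, except in the alternative with the mouse as block. Deviations from group means correlated with a median of 0.430 within mice (0.0078 to 0.704, above 0.1 in 16 of 17) and -0.0907 between mice. Alternatives were another pseudocount, filter, scaling or weighting, 1 fit of 3 groups, the prefix as covariate, the mouse as block, and leaving out libraries.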

Additional observations from a re-analysis of the deposited data

Results flagged for a closer look

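In 7 of 54 sets of 1 gene in 1 group and hemisphere, 1 library lay far from the others by Dixon's criterion. The nominal rate of about 1 in 20 assumes independent sets of normal values. These sets share their libraries, and the rate over all genes was not computed, so the count is no result about these genes. All 7 come from mice 9_11 and 9_14, whose libraries were also extreme for many other genes, as given above. Sham mouse 9_11 was the high library for 5 of them. Its ipsilateral library stood at 27 TPM for Gli3, 34.17 TPM for Ptch1, 19.98 TPM for Boc and 11.93 TPM for Gli2, and its contralateral library at 6.41 TPM for Hhip. The ipsilateral library of PTE- mouse 9_14 gave the other two, with Smo at 0.02 TPM, the low end of its group, and Cdon at 2.78 TPM, the high end.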

How the results depend on the processing

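Of 1168 values of single genes under the alternatives, 1144 kept their status, which for nearly all of them means that they stayed not called. A call was lost by 6 and gained by 18, and none that was called turned its direction. The only calls as reported were those of Smo in ipsilateral PTE+ against sham and in contralateral PTE+ against PTE- mice, and all 6 losses are among their alternatives. For values given without a test, keeping the status means a shift smaller than the residual SD. The sign of values that were not called was less stable, since 129 of the 1168 changed sign, from reported values of up to 0.46 in size. The number of genes called in ipsilateral injured against sham mice (0) became 1 with quantile normalization, 2 with array weights, 2 without mice 9_11 and 9_14 (chosen after seeing the data) and 0 to 1 with 1 library left out. In ipsilateral PTE- against sham mice (0) it became 1 with array weights, 2 without both mice and 0 to 1 with 1 library left out. In ipsilateral PTE+ against sham mice (1) it became 3 with array weights, 0 in a fit of all 3 groups and 1 to 3 with 1 library left out. In contralateral PTE+ against PTE- mice (1) it became 0 with median centring, 0 with array weights and 0 to 1 with 1 library left out. In contralateral PTE+ against sham mice (0) it became 1 with median centring, and between the hemispheres of PTE+ mice (0) it became 2 with array weights. The causes were not tested.

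With the mouse as a block, the pairing left 0 of the genes called between hemispheres in sham, PTE- and PTE+ mice and in the comparison of PTE+ with PTE- across hemispheres, while calls over all genes rose from 126 to 732, 360 to 616, 209 to 406 and 80 to 330. Calls over all genes moved more, and over the alternatives they ranged from 138 to 911 for ipsilateral injured against sham mice (169), 23 to 441 for ipsilateral PTE+ against PTE- mice (60), 144 to 650 for ipsilateral PTE- against sham mice (161), 83 to 1221 for ipsilateral PTE+ against sham mice (163), 231 to 883 for contralateral injured against sham mice (428), 201 to 828 for contralateral PTE+ against PTE- mice (291). They ranged from 224 to 861 for contralateral PTE- against sham mice (397), 104 to 1114 for contralateral PTE+ against sham mice (210), 37 to 910 for the hemispheres of sham mice (126), 361 to 616 for the hemispheres of PTE- mice (360), 141 to 1545 for the hemispheres of PTE+ mice (209), 23 to 574 for the comparison of PTE+ with PTE- across hemispheres (80). The number in brackets is the count as reported. The depth of the libraries is unknown, which limits low genes such as Hhip and Cdon.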

Other observations

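Among the 9 genes, Hhip and Sufu also gave like levels in both hemispheres of a mouse, with r = 0.703 (permutation p = 0.00177, rho = 0.640, permutation p = 0.00694) and r = 0.688 (permutation p = 0.00231, rho = 0.569, permutation p = 0.0184) over 17 mice. Without the 2 mice farthest from the median r was 0.478 and 0.500. Within prefixes 8 and 9 it was 0.516 and 0.812 for Hhip and 0.843 and 0.0674 for Sufu, so the relation of Sufu was weak among the 10 mice of prefix 9. Gli2 gave r = 0.645 (permutation p = 0.00455, rho = 0.580, permutation p = 0.0176), 0.534 without 2 mice, and -0.0602 and 0.595 within the prefixes. Ptch1 gave r = 0.573 (permutation p = 0.0161, rho = 0.547, permutation p = 0.0251), 0.420 without 2 mice, and 0.473 and 0.622 within the prefixes. Boc gave r = 0.386 (permutation p = 0.125, rho = 0.387, permutation p = 0.126). Cdon, which is near 0 TPM, gave r = -0.421 (permutation p = 0.0911, rho = -0.428, permutation p = 0.0874). These permutation tests compare r with 0, while the median r over 10065 genes was 0.467. Among those genes the percentile was 88.1 for Sufu, 81.8 for Gli2, 68.7 for Ptch1 and 36.8 for Boc. Hhip and Cdon were below the filter and have no percentile.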
